A study of Mus musculus with 12 samples.

Results

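Cytosolic heat shock proteins are the chaperones that keep other proteins folded outside the membrane-bound compartments of the cell. Their transcripts were followed in livers of male C57BL/6 mice given a toxic dose of acetaminophen (APAP). The set held 10 genes, chosen by symbol from the 45777 genes of the deposited expression table. It comprised the heat-inducible HSP70 genes Hspa1a and Hspa1b, the constitutive HSP70 gene Hspa8, the J-domain partner Dnajb1, and the exchange factors Hsph1 and Bag3. It was completed by the HSP90 genes Hsp90aa1 and Hsp90ab1, the small heat shock protein Hspb1 and the transcription factor Hsf1. The choice applied no rule on measured values, but it was made with earlier results of these data known. All 10 genes passed the low-count filter in each comparison.

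Protein damage releases HSF1 from chaperones, after which it forms trimers, binds heat shock elements upstream of its targets and raises their transcription within minutes. HSP70 holds unfolded segments under the control of J-domain proteins, which speed its ATP hydrolysis, and of nucleotide exchange factors, which reset it. HSP90 completes the folding of kinases and receptors, and small heat shock proteins hold damaged proteins until HSP70 takes them. In the liver, the reactive metabolite that CYP enzymes form from APAP binds covalently to hepatocyte proteins.

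RNA from 12 livers was sequenced, with 3 livers in each of 4 groups: WT vehicle, WT APAP, KO vehicle and KO APAP, where KO is the label for Gα12 (Gna12) knockout mice. Per the study's methods, mice fasted overnight received vehicle or a single intraperitoneal dose of 300 mg/kg APAP, livers were taken 6 h later, and the WT mice were age-matched littermates. The labels give an age of 10 to 12 weeks. Whole liver was used, so that fewer cells of a type and less RNA per cell cannot be told apart.

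Total counts ran from 49737950 to 69566079 per library. Hepatocyte markers were high in every library, with Alb between 31824 and 64825 TPM, a unit scaled to transcript length. Gna12 was not lower under the KO label, at 54.6 to 67.2 CPM (counts scaled to library size) with vehicle against 34.8 to 66.7 CPM in WT vehicle livers. After APAP it was 43.5 to 48.3 CPM under the KO label, within the 23.7 to 58.1 CPM of WT APAP livers. The study itself genotyped its mice by PCR of tail DNA and measured Gna12 in liver by qRT-PCR. A gene-level count does not show which exons a deletion removed, and the groups are therefore called by their label. One library stood apart: the summed TPM of 5 erythroid markers was 28806 in WT APAP replicate 1 and 657 to 1560.2 in the other 11 livers. The 5 neutrophil markers also summed highest there, at 213 TPM against 0.833 to 47.6 TPM elsewhere. The counts of called genes are therefore also given without this library.

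Most cytosolic heat shock transcripts were higher after APAP. Over all 12 livers, with the genotype label as a term, 9 of the 10 genes rose and none fell at an adjusted p under 0.05 in edgeR's quasi-likelihood test. The 9 genes rose from 2.23-fold for Hsp90ab1 to 87.6-fold for Hspa1a. By the same rule 14.0% of the 16112 genes tested rose and 11.7% fell. The median log2 fold change of the 10 genes was 3.14, against 0.01 over all genes tested. The exception was Hsf1. Without WT APAP replicate 1 the count was again 9, with 4750 genes called in place of 4142, and the log2 fold changes of the 9 genes ran from 1.30 (Hspa8) to 6.68 (Hspa1a). For 6 of the 10 genes every APAP liver lay above every vehicle liver, a pattern that 7.17% of all genes showed upward and 5.46% downward. This was so in CPM with and without TMM factors, which offset libraries in which few genes take many counts, whereas in TPM it held for 4 genes (4.82% of all genes upward, 1.71% downward), since Hspa8 and Bag3 of WT APAP replicate 1 then lay within the vehicle range.

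Within each genotype label the calls differed in number. Under the KO label 9 genes rose and none fell, where 13.0% of the 15665 genes tested rose and 9.60% fell, and 9 genes had groups that did not overlap (22.4% of all genes upward, 20.5% downward; in TPM 10 genes, against 27.3% and 8.35%). In WT mice 2 genes rose, Dnajb1 and Hsp90aa1, and none fell, where 1.62% of the 15693 genes tested rose and 0.427% fell. The WT count was 8 when all 12 livers shared one estimate of the spread (1523 genes called in all), and 8 in DESeq2 (1413 genes in all). In WT, 8 of the 10 genes had an unadjusted p under 0.05, as did 2817 of the 15693 genes tested. Of the 10 genes, 6 had WT groups that did not overlap (13.3% of all genes upward, 11.6% downward). In TPM it was 4 genes, against 9.06% and 6.90%. The median log2 fold change of the 10 genes was 2.90 in WT and 3.30 under the KO label, against 0.03 and -0.02 over all genes. Without WT APAP replicate 1 the WT comparison called 3 of the 10 genes (279 genes in all, in place of 322), with Bag3 added (log2 fold change 3.53, adjusted p = 0.0258). Dropping WT vehicle replicate 3 left none of the 10 called, among 41 genes in all. Dropping any other single library left 1 of the 10. All calls then numbered 43 for WT vehicle replicate 1, 68 for WT APAP replicate 3 and 442 for WT APAP replicate 2. Calls among the 10 were thus lost both where all calls fell and where they rose. Hsph1 (3.32), Hspb1 (3.30) and Hsp90ab1 (1.25) still missed the threshold in WT without WT APAP replicate 1 (adjusted p = 0.0642, 0.100 and 0.166). The summed TPM of 5 hepatic stellate cell markers was 70.6 to 84.5 in WT vehicle and 108 to 131 in WT APAP livers, and 120 to 144 with vehicle and 107 to 116 after APAP under the KO label. This sum was mostly Dcn, at 62.4 to 125.9 TPM over the 12 livers, where the next highest marker, Reln, reached 10.3 TPM. That of 5 hepatocyte markers was 54216 to 68422 in WT vehicle and 68537 to 85416 in WT APAP livers, and that of 5 lymphocyte markers was 1.61 to 3.15 in KO vehicle and 1.04 to 1.46 in KO APAP livers. The part of these shifts in the fold changes was not tested.

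**Figure D1:**
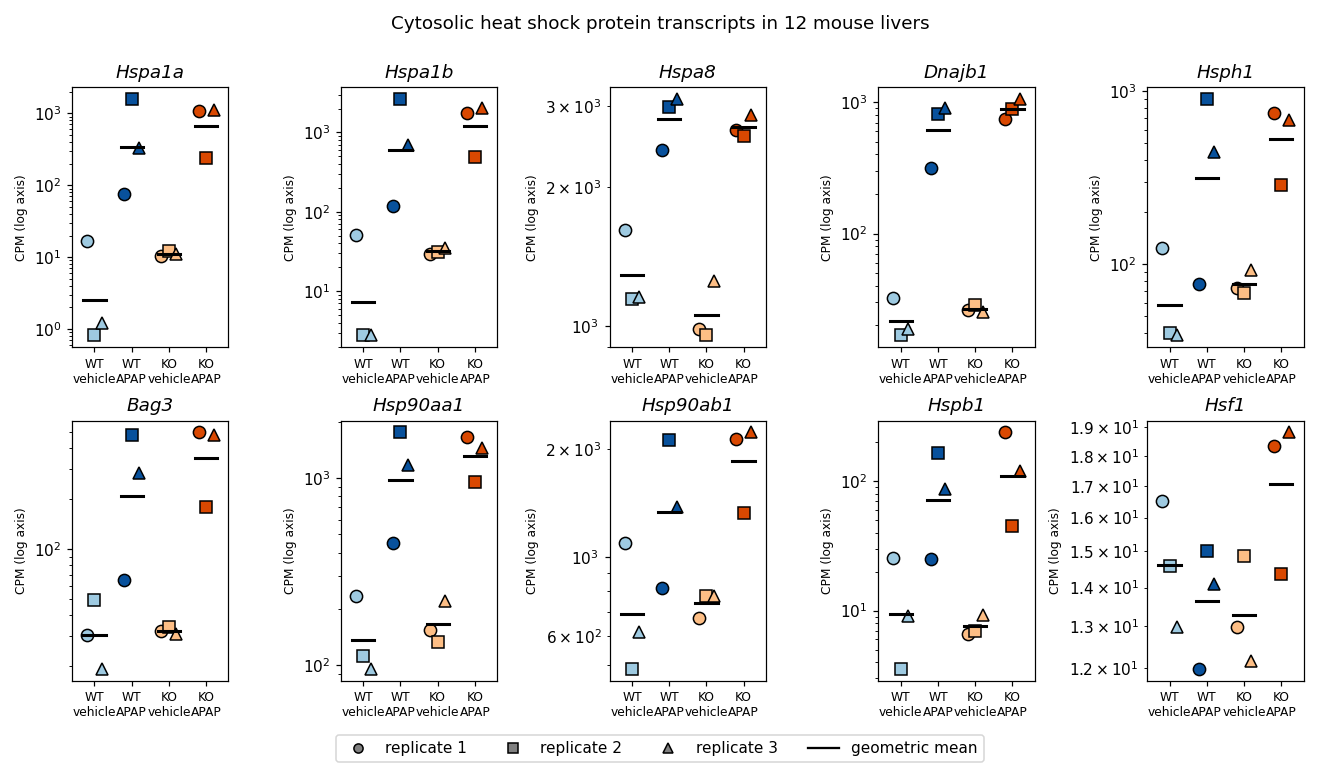
CPM on a log axis (which differs between panels) for each of the 10 genes in the 12 livers, with marker shape for the replicate and a line for the geometric mean of each group of 3. In every panel but that of Hsf1 the mean of each APAP group lies above that of its vehicle group, Hsph1, Hspb1 and Hsp90ab1 have WT groups that overlap, and WT APAP replicate 1 (dark blue circle) is the lowest APAP liver in all 10 panels.

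The largest fold changes over all livers were those of the heat-inducible HSP70 genes, an order that was not tested against Dnajb1. Hspa1a lies at chr17:34969359-34972156 and Hspa1b at chr17:34956429-34959238 (GRCm38.p6), and they encode near-identical proteins. Their GENCODE transcripts were 99.2% identical over 2201 bases, so the division of reads between them is uncertain and their sum was also tested. Values below are CPM for replicates 1, 2 and 3 in that order.

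Hspa1a measured 16.7, 0.817 and 1.20 CPM in WT vehicle livers and 74.9, 1578 and 330.3 CPM in WT APAP livers. Under the KO label it measured 10.2, 12.1 and 11.2 CPM with vehicle and 1066, 236 and 1129 CPM after APAP. All 6 APAP livers exceeded all 6 vehicle livers. Hspa1b measured 50.8, 2.77 and 2.79 CPM in WT vehicle livers and 118, 2629 and 700.3 CPM in WT APAP livers. In livers labelled KO it was 29.3, 31.5 and 34.9 CPM with vehicle and 1774, 483 and 2011 CPM after APAP. Both genes were thus far more scattered in WT than under the KO label before APAP, because WT vehicle replicate 1 lay above the other two WT vehicle livers and near the KO vehicle livers. After APAP the scatter was wide in both genotypes.

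The log2 fold change of the sum of Hspa1a and Hspa1b was 5.94 over all livers (SE 0.94, adjusted p = 0.00071). It was 5.71 under the KO label (SE 0.55, adjusted p = 0.000636). In WT it was 6.18 but with an SE of 1.65 it did not pass (adjusted p = 0.107; 95% interval 2.35 to 10.01). The WT estimate passed when all 12 livers shared one estimate of the spread (6.18, adjusted p = 0.0197). On leaving out 1 library it became 8.90 (WT vehicle replicate 1), 6.71 (WT APAP replicate 1) or 4.60 (WT APAP replicate 2), and it passed in none of these cases (adjusted p = 0.0975, 0.102 and 0.137). The value over all livers moved to 6.96 without WT vehicle replicate 1 and to 5.23 without WT APAP replicate 2, and passed in both (adjusted p = 0.000818 and 0.00112). Singly, Hspa1a changed by 6.45 and Hspa1b by 5.71 on the log2 scale over all livers (adjusted p = 0.000452 and 0.000838). For Hspa1a this became 7.39 without WT vehicle replicate 1 and 5.68 without WT APAP replicate 2, and for Hspa1b 6.74 and 5.03.

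The upstream sequences of both genes are shown because they hold, at the same place, 2 adjoining units of the heat shock element, the DNA motif that HSF1 binds. A trimer is known to bind 3 units, and neither window held 3 in a row. The 150 bases before the RefSeq start site on GRCm38.p6, minus strand, are chr17:34972157-34972306 for Hspa1a and chr17:34959239-34959388 for Hspa1b, and capitals mark GAANNTTC.

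Hspa1a: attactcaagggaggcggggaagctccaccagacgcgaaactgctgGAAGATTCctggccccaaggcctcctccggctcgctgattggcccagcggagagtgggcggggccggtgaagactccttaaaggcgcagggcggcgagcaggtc
Hspa1b: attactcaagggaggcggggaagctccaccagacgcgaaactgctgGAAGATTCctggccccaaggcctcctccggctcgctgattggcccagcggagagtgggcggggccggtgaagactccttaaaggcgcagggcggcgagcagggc

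The printed stretches differed at 1 base, and the windows of 300 bases around the start sites (250 before, 50 after) at 4, an identity of 98.7%. The match ran from -104 to -97 relative to the start site in both genes. Of all 32851 RefSeq windows of this length, 7.86% held GAANNTTC and 8.52% held TTCNNGAA, the same units in the other order. Each motif reads the same on both strands, and a match describes the letters only.

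Despite the near-identity, the division of counts between both genes moved with APAP. Hspa1a took 22.8% to 30.0% of the Hspa1a plus Hspa1b counts in the 6 vehicle livers and 32.1% to 38.9% in the 6 APAP livers. No APAP liver overlapped a vehicle liver. The mean difference was 9.89 percentage points (10.3 in WT, 9.46 under the KO label; exact permutation test within genotype label, two-sided, p = 0.005, the smallest it can give). The part that read assignment between near-identical transcripts has in this shift was not tested.

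Hspa8 (chr9:40801276-40805202), which encodes the constitutive HSP70 of the cytosol (HSC70) and has 3 small nucleolar RNA genes within its bounds, changed by far less. It was 1613, 1145 and 1153 CPM in WT vehicle livers and 2410.3, 2985 and 3106 CPM in WT APAP livers. Under the KO label it was 982, 953 and 1248 CPM with vehicle and 2661, 2577 and 2862 CPM after APAP. In CPM the groups did not overlap. In TPM, WT APAP replicate 1 was at 1141, below WT vehicle replicate 1 at 1326 and the other APAP livers at 2247 to 2651. The log2 fold change was 1.23 over all livers (SE 0.14, adjusted p = 6.51e-05), 1.36 under the KO label (SE 0.17, adjusted p = 0.00195) and 1.13 in WT (SE 0.25, adjusted p = 0.0668). The expression data also hold 7 pseudogenes that are over 93% identical to Hspa8 over at least 200 bases, with up to 85745 counts for Gm15459. With their counts added, the mean log2 difference over all livers was 1.16 in place of 1.24.

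The make-up of the HSP70 pool therefore shifted. Per length, Hspa1a plus Hspa1b made up 0.232% to 3.31% of the TPM of the 3 HSP70 genes in vehicle livers and 5.66% to 51.4% in APAP livers. WT APAP replicate 1 was lowest at 5.66%, KO APAP replicate 2 and WT APAP replicate 3 followed at 17.3% and 19.9%, and the other 3 APAP livers were at 44.4% to 51.4%. In WT APAP replicate 2, Hspa1a plus Hspa1b reached 2802 TPM and exceeded the Hspa8 row at 2651 TPM. The rows of the 7 Hspa8 pseudogenes, with up to 85745 counts for Gm15459, were left out of these shares. Whether this order holds with them added was not tested. The mean difference between treatments was 28.6 percentage points (exact permutation test, two-sided, p = 0.005, the smallest it can give).

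Dnajb1 (chr8:83608175-83612653), the HSP40 that delivers substrates to HSP70 and that represses HSF1 together with it, rose in every APAP liver. It was 32.5, 16.7 and 18.8 CPM in WT vehicle livers and 317, 812 and 908 CPM in WT APAP livers. In livers labelled KO it was 26.3, 28.4 and 25.1 CPM with vehicle and 742, 891 and 1057 CPM after APAP. The lowest APAP liver, WT APAP replicate 1, was still above every vehicle liver. Its log2 fold change was 4.99 over all livers (SE 0.28, adjusted p = 2.72e-07), 5.08 under the KO label (SE 0.19, adjusted p = 1.18e-05) and 4.91 in WT (SE 0.50, adjusted p = 0.00700). The WT call was lost without WT vehicle replicate 3 (4.77, adjusted p = 0.052). Neither of the 2 Dnajb1 windows held GAANNTTC or TTCNNGAA, which says only that these letters are not there.

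Set against the HSP70 transcripts, Dnajb1 also rose. Vehicle livers had 1.02 to 2.01 TPM of Dnajb1 per 100 TPM of Hspa1a, Hspa1b and Hspa8, and APAP livers had 8.68 to 19.97 TPM. The highest values were in KO APAP replicate 2 and WT APAP replicate 3, whose Hspa1a plus Hspa1b levels were among the lower ones. WT APAP replicate 1, with the lowest such level of the APAP livers (68.4 TPM), had the lowest value (8.68). The Hspa1a plus Hspa1b level is itself part of the divisor, and the Hspa8 pseudogenes were left out of it. The mean difference was 11.7 TPM per 100 TPM (exact permutation test, two-sided, p = 0.005, the smallest it can give).

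The fold changes of both nucleotide exchange factors were smaller than that of Dnajb1, a difference that was not tested. Hsph1 (HSP110; chr5:149616843-149636498), which resets HSP70 and helps it to dissolve aggregates, was 124, 40.3 and 38.8 CPM in WT vehicle livers and 77.1, 901 and 447 CPM in WT APAP livers. Under the KO label it was 72.5, 68.4 and 93.2 CPM with vehicle and 747, 288 and 679 CPM after APAP. WT APAP replicate 1 lay below WT vehicle replicate 1, so that the WT groups overlapped, whereas those under the KO label did not. The log2 fold change was 2.84 over all livers (SE 0.50, adjusted p = 0.0014), 2.88 under the KO label (SE 0.35, adjusted p = 0.00162) and 2.82 in WT (SE 0.86, adjusted p = 0.142). The WT value was 1.94 without WT APAP replicate 2 and 3.59 without WT vehicle replicate 1.

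The first of the 2 Hsph1 windows is shown for its match to TTCNNGAA at -33 to -26 (chr5:149636337-149636486, GRCm38.p6, minus strand, the 150 bases before the start site, match in capitals).

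Hsph1: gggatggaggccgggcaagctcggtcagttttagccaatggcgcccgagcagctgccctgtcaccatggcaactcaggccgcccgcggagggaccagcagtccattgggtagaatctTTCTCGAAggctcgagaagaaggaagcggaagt

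The same window held TTCNNGAA joined to GAANNTTC by the shared middle unit at 37 to 49 bases after the start, an arrangement found in 0.32% of all windows.

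Bag3 (chr7:128523583-128546981), the exchange factor that links HSP70 to small heat shock proteins and to autophagy, was 30.4, 49.8 and 19.2 CPM in WT vehicle livers and 65.3, 479 and 287 CPM in WT APAP livers. In livers labelled KO it was 32.1, 34.0 and 30.9 CPM with vehicle and 499, 178 and 481 CPM after APAP. In CPM no APAP liver overlapped a vehicle liver, although WT APAP replicate 1 stood only slightly above. In TPM it was at 25.1, below WT vehicle replicate 2 at 28.0. Its log2 fold change was 3.32 over all livers (SE 0.44, adjusted p = 0.000222), 3.59 under the KO label (SE 0.37, adjusted p = 0.000867) and 3.07 in WT (SE 0.70, adjusted p = 0.0728; 2.40 without WT APAP replicate 2). The Bag3 window held GAANNTTC once, at 43 to 50 bases after the start.

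The HSP90 pair responded unequally. Hsp90aa1 (chr12:110691036-110696395), the stress-inducible cytosolic HSP90, was 234, 111 and 95.7 CPM in WT vehicle livers and 447, 1756 and 1179 CPM in WT APAP livers. Under the KO label it was 154, 133 and 221 CPM with vehicle and 1657, 948 and 1453 CPM after APAP. All APAP livers lay above all vehicle livers. The log2 fold change was 2.97 over all livers (SE 0.34, adjusted p = 7.05e-05), 3.01 under the KO label (SE 0.28, adjusted p = 0.000524) and 2.94 in WT (SE 0.57, adjusted p = 0.0482). The WT call was lost on leaving out any 1 library other than WT APAP replicate 1, with adjusted p between 0.0631 and 0.172.

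Hsp90ab1 (chr17:45567778-45573261), its constitutive partner, was 1094, 487 and 618 CPM in WT vehicle livers and 819, 2121 and 1372 CPM in WT APAP livers. In livers labelled KO it was 676, 776 and 779 CPM with vehicle and 2129, 1327 and 2223 CPM after APAP. The WT groups overlapped through WT vehicle replicate 1 and WT APAP replicate 1. Its log2 fold change was 1.16 over all livers (SE 0.25, adjusted p = 0.0051), 1.36 under the KO label (SE 0.22, adjusted p = 0.00475) and 0.98 in WT (SE 0.43, adjusted p = 0.285).

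Hsp90aa1 accordingly took a larger part of the HSP90 transcripts after APAP. Its share of the TPM of both genes was 12.0% to 20.0% in vehicle livers and 32.5% to 43.0% in APAP livers, with a mean difference of 23.2 percentage points (exact permutation test, two-sided, p = 0.005, the smallest it can give). WT APAP replicate 1 was again the lowest APAP liver, but it was well above every vehicle liver. Adding the counts of 2 pseudogenes near-identical to Hsp90aa1 left its mean log2 difference over all livers at 2.91.

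**Figure D2:**
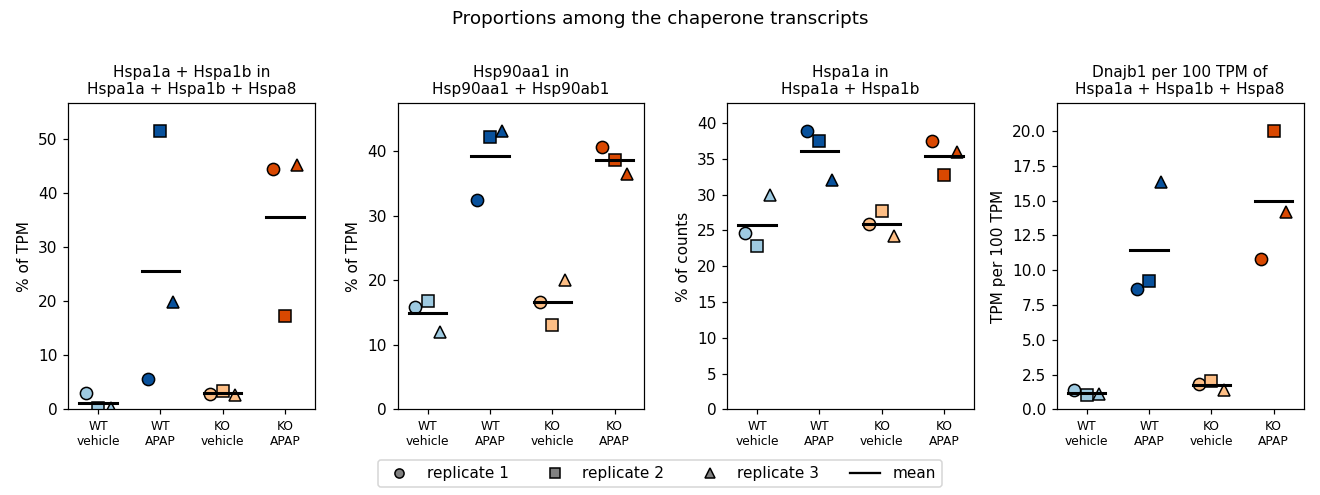
Proportions among the chaperone transcripts in the 12 livers: Hspa1a plus Hspa1b as % of the HSP70 TPM, Hsp90aa1 as % of the HSP90 TPM, Hspa1a as % of the Hspa1a plus Hspa1b counts, and Dnajb1 TPM per 100 TPM of HSP70, with marker shape for the replicate and a line for the mean of each group of 3. In each panel the 6 APAP livers lie above the 6 vehicle livers, and the first panel shows a spread from 5.66% to 51.4% among APAP livers.

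Hspb1 (HSP25 in mice; chr5:135887919-135889563) is a small heat shock protein that binds unfolding proteins without ATP. It was 25.4, 3.56 and 9.16 CPM in WT vehicle livers and 25.1, 164 and 86.4 CPM in WT APAP livers. Under the KO label it was 6.65, 6.95 and 9.32 CPM with vehicle and 237, 45.2 and 119 CPM after APAP. WT vehicle replicate 1 and WT APAP replicate 1 were almost level, and the groups under the KO label did not overlap. The log2 fold change was 3.49 over all livers (SE 0.60, adjusted p = 0.00118), 4.14 under the KO label (SE 0.55, adjusted p = 0.00252) and 2.86 in WT (SE 0.85, adjusted p = 0.135). Without KO APAP replicate 1, the highest liver, the value under the KO label was 3.44 (adjusted p = 0.00332), and in WT it was 2.12 without WT APAP replicate 2 and 3.85 without WT vehicle replicate 1. With the counts of its near-identical pseudogene Hsp25-ps1 added, the mean log2 difference over all livers was 3.31 in place of 3.30. The upstream sequence of Hspb1 is shown because it held GAANNTTC in 2 places, at -117 to -110 and at -97 to -90 (chr5:135887769-135887918, GRCm38.p6, plus strand, the 150 bases before the start site, matches in capitals).

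Hspb1: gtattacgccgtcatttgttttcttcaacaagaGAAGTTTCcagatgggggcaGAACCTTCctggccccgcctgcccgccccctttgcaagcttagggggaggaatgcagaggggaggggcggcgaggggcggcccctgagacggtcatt

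RefSeq held 8 windows for 6 of the 10 genes, and 6 windows of 5 genes contained at least 1 of the 2 motifs, which 15.1% of all windows did. The 6 are not separate finds, as the Hspa1a and Hspa1b windows are near-identical and the 2 Hsph1 windows overlap. No window was held for Hspa8, Hsp90aa1, Hsp90ab1 and Hsf1.

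Hsf1 (chr15:76477362-76501155), which encodes the factor that drives the heat shock response, was 16.5, 14.6 and 13.0 CPM in WT vehicle livers and 12.0, 15.0 and 14.1 CPM in WT APAP livers. In livers labelled KO it was 13.0, 14.9 and 12.2 CPM with vehicle and 18.3, 14.4 and 18.8 CPM after APAP. In CPM the groups overlapped in both genotypes, and in TPM those under the KO label did not. Its log2 fold change was 0.13 over all livers (SE 0.12, adjusted p = 0.48; 95% interval -0.14 to 0.40), 0.37 under the KO label (SE 0.14, adjusted p = 0.0989) and -0.09 in WT (SE 0.18, adjusted p = 0.824). Leaving out KO APAP replicate 2 gave 0.49 under the KO label, which passed (adjusted p = 0.0424). HSF1 is activated as a protein, which transcript counts do not measure.

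Levels per length changed their order. In vehicle livers the highest median was that of Hspa8 (815 TPM), followed by Hsp90ab1 (465 TPM) and Hsp90aa1 (90.7 TPM), and the ranges of these 3 genes did not overlap. The other 7 genes had medians of 6.25 TPM (Hspa1a) to 34.3 TPM (Hsph1), and neighbouring ranges overlapped from Hsp90aa1 down to Hspa1a. After APAP, Hspa8 (2459 TPM) and Hsp90ab1 (1276 TPM) were still first, but Hspa1b ranked 3 (827 TPM) and Dnajb1 ranked 5 (499 TPM), up from ranks 6 and 8. The order differed between the labels: Dnajb1 ranked 4 and Hspa1b 5 in WT APAP livers, and Hspa1b 3 and Dnajb1 6 in KO APAP livers, and with vehicle in WT Hspa1b ranked 9. Hsf1 was last at 12.7 TPM. Except for that of Hsf1, neighbouring ranges after APAP overlapped widely, as from 41.7 to 1748 TPM for Hspa1b and from 156 to 1151 TPM for Hsp90aa1. Together the 10 genes made up 0.120% to 0.242% of all TPM in vehicle livers and 0.188% to 0.987% in APAP livers, and WT APAP replicate 1 (0.188%) lay within the vehicle range.

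**Figure D3:**
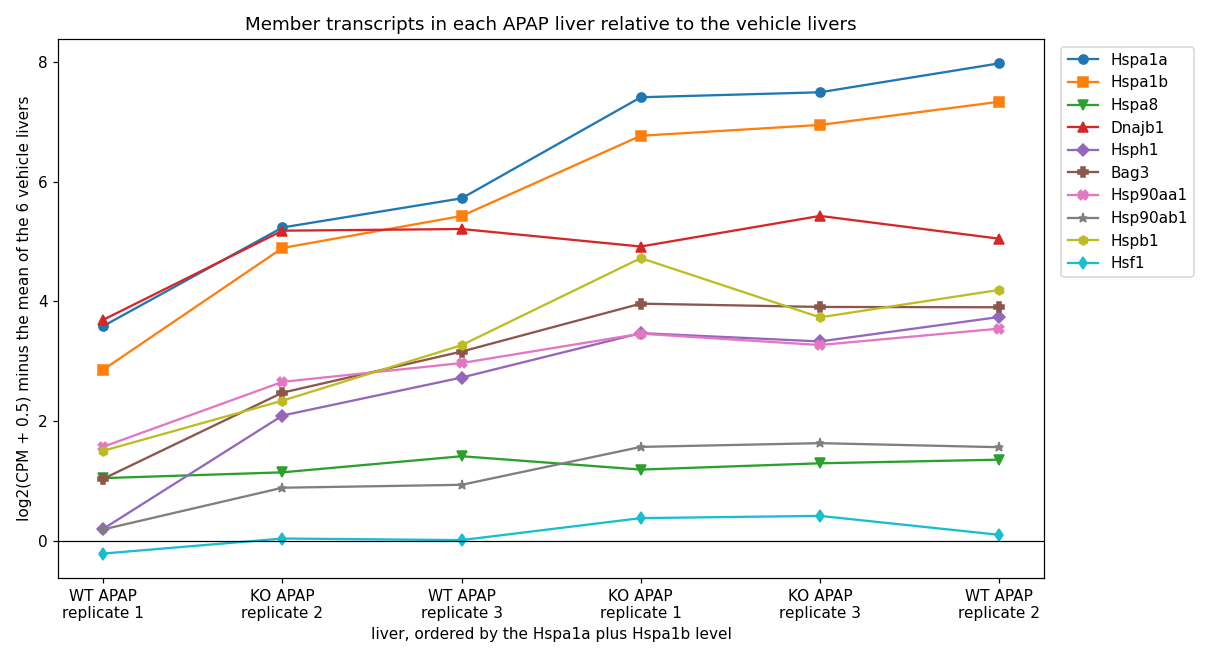
Log2(CPM + 0.5) of each gene in each of the 6 APAP livers minus its mean over the 6 vehicle livers, with the livers ordered by their Hspa1a plus Hspa1b level. Hspa1a and Hspa1b climb steeply from WT APAP replicate 1 to WT APAP replicate 2, whereas the lines of Hspa8 and Hsf1 are almost flat and Dnajb1 is level over the last 5 livers.

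Single livers differed widely within a group. Among the 6 APAP livers, WT APAP replicate 1 had the lowest CPM of all 10 genes, and KO APAP replicate 2 was among the lowest 2 livers for 8 of them. WT APAP replicate 2 was highest for 4 genes, KO APAP replicate 3 for 3 and KO APAP replicate 1 for 2. Among the 6 vehicle livers, WT vehicle replicate 1 was highest for 9 of the 10 genes, all but Bag3. WT APAP replicate 1 is the library with the high erythroid and neutrophil markers, and the part of those cells in its low values was not tested.

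Across the 6 APAP livers, the members were compared with the sum of Hspa1a and Hspa1b on the log2(CPM + 0.5) scale, which gave 8 relations. Pearson's r was 0.99 for Hsp90ab1, 0.98 for Bag3, Hsph1 and Hsp90aa1, and 0.94 for Hspb1, each with an adjusted permutation p of 0.0111 or 0.0133 (exact permutation test, two-sided). Spearman's rho for these 5 genes was 0.77 to 0.94, and none passed after adjustment (lowest adjusted p 0.0667, exact permutation test). Without the 2 livers farthest from the median, WT APAP replicates 1 and 2, r over the remaining 4 livers was 0.87 to 0.99 for the 5 genes. For Dnajb1, r was 0.75 over 6 livers (adjusted p = 0.114, exact permutation test) and 0.00 over 4, and for Hspa8 it was 0.66 (adjusted p = 0.163, exact permutation test) and 0.03, so that both relations rested on the 2 livers left out. For Hsf1, r was 0.83 over 6 livers (adjusted p = 0.0685, exact permutation test) and 0.97 over 4. The permutations ignored the genotype label, and each pair of values came from the same library and shared its scaling. The vehicle livers fell into 2 WT livers with a sum of 3.58 and 3.99 CPM and 4 livers at 39.5 to 67.5 CPM, and either cluster is too small for a relation of its own. The 8 relations were also computed over all 6 of them, but a pooled r is not given across separate clusters. Its adjusted permutation p was under 0.05 for Dnajb1, Hsph1 and Hsp90ab1 (exact permutation test). Because that p comes from the same pooled r, no relation is read from it.

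Whether the Gα12 label altered the response was asked in 3 ways. After APAP, none of the 10 genes passed the test between WT and KO label, where 5 of 16174 genes did (0.0309%). With vehicle none passed, where 4 of 15262 genes did (0.0262%). The summed neutrophil markers were 23.2 to 213 TPM in WT APAP and 1.12 to 16.0 TPM in KO APAP livers. With vehicle, the stellate cell markers (mostly Dcn, 70.6 to 84.5 against 120 to 144 TPM), the erythroid markers (657 to 841 against 947 to 1560.2 TPM) and the lymphocyte markers (0.458 to 1.31 against 1.61 to 3.15 TPM) were lower in WT without overlap. The part of these cells in the comparisons was not tested. In neither comparison did a member reach an unadjusted p under 0.05. Of all genes tested, 536 did after APAP and 1154 with vehicle. DESeq2 called none of the members. The interaction, which tests whether the APAP effect differed between the labels, called none of the 10 genes and none of 16509 genes (0%). At an unadjusted p under 0.05 it held 848 genes but no member, and DESeq2 called 9 genes. Without WT APAP replicate 1 the test after APAP called 7 genes and the interaction 0, with no member in either.

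The intervals were wide, so that differences of some size could not be seen. After APAP the log2 ratio of WT to KO label for the sum of Hspa1a and Hspa1b was -0.30 (95% interval -2.47 to 1.88), and its sign turned to 0.24 without WT APAP replicate 1. The narrowest interval after APAP was that of Hsf1, at -0.31 (-0.72 to 0.10), followed by Hspa8 at 0.08 (-0.38 to 0.54). Hspb1 had the largest interaction in size, at -1.28 (-3.60 to 1.04), and Hsf1 the smallest unadjusted p among the members, 0.0583 (interaction -0.46, -0.95 to 0.02, adjusted p = 0.872).

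The vehicle comparison turned on 1 library. For the sum of Hspa1a and Hspa1b the log2 ratio of WT to KO label was -0.78 (95% interval -3.10 to 1.54, adjusted p = 0.881) with all 6 vehicle livers. Without WT vehicle replicate 1 it was -3.50 (adjusted p = 0.00289), and Hspa1a (-3.46, adjusted p = 0.0112) and Hspa1b (-3.52, adjusted p = 0.00295) were then called lower in WT. That fit compares 2 WT livers with 3 livers under the KO label. The library left out had 16.7 CPM of Hspa1a, beside 0.817 and 1.20 CPM in the others.

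**Figure D4:**
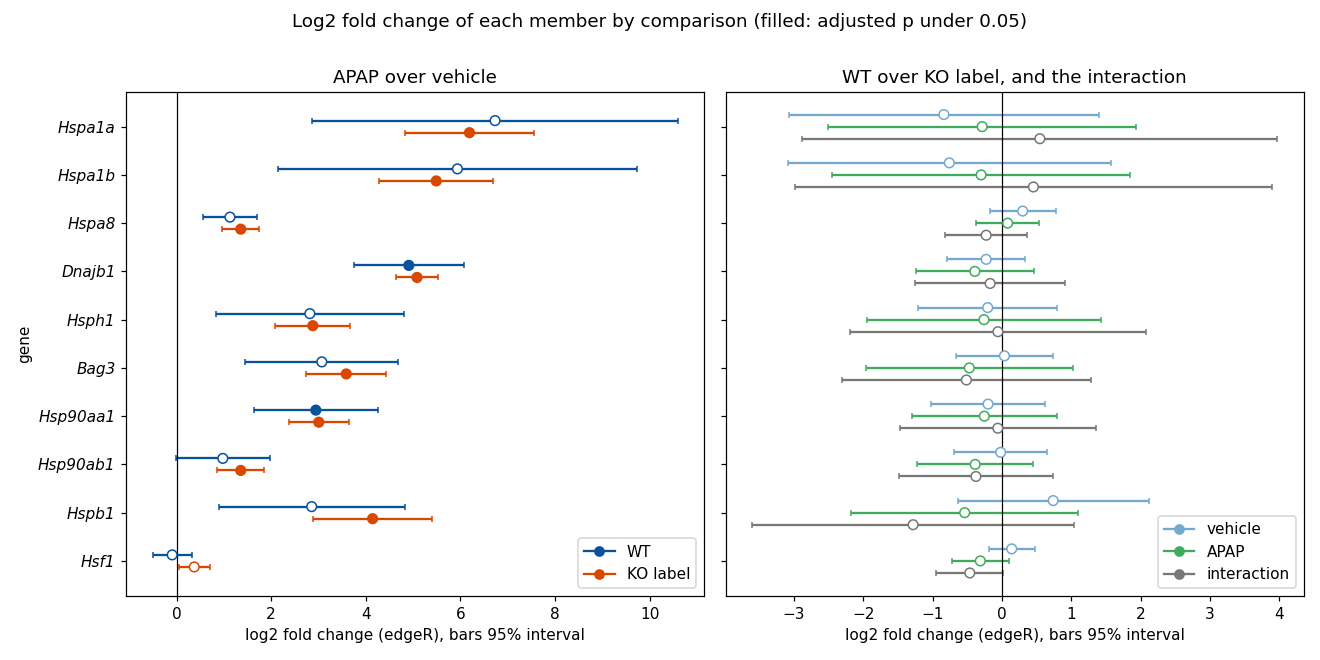
Log2 fold change of each gene with its 95% interval from edgeR: on the left APAP over vehicle in WT and under the KO label, on the right WT over KO label with vehicle and after APAP, and the interaction. Filled points have an adjusted p under 0.05. On the left 9 KO label points and 2 WT points are filled, and on the right none is.

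Other chaperone genes were counted in 7 lists of 64 genes, also chosen with earlier results of these data known. Over all 12 livers 59 of them were tested, of which 17 rose (28.8%) and 4 fell (6.78%), beside 14.0% higher and 11.7% lower among all genes. Among other J-domain proteins 4 of 8 rose and none fell: Dnaja4 (log2 fold change 3.14, adjusted p = 0.000827), Dnaja1 (1.30, 0.000369), Dnajb4 (0.88, 0.0014) and Dnaja2 (0.35, 0.0341), which are HSP70 partners like Dnajb1. Dnaja4 was 2.68 CPM in the lowest APAP liver, within the vehicle range of 2.22 to 4.68 CPM, and 49.0 CPM in the highest.

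Among other cytosolic HSP70 proteins and exchange factors 2 of 12 rose and 1 fell. Hspa1l, the HSP70 gene next to Hspa1a that is known from testis, was at most 0.214 CPM in vehicle livers and 1.03 to 18.3 CPM in APAP livers (adjusted p = 0.000267). Hspa4, an HSP110 relative of Hsph1, rose by 0.67 on the log2 scale (adjusted p = 0.000218), and Bag4 changed by -0.59 (adjusted p = 0.0126). St13, which binds HSP70, did not pass (-0.35, adjusted p = 0.0678).

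HSP90 co-chaperones were split, with 3 of 13 higher and 2 lower. Ptges3 (p23) changed by 0.53 (adjusted p = 0.0083), Unc45a by 0.34 (0.0176) and Ppid by 0.39 (0.0384), and Ahsa2 by -0.62 (0.0113). The other lower gene was Ppp5c (-0.30, adjusted p = 0.04), named after its values were seen. The median of the list was 0.03. Of the other small heat shock proteins 9 were listed and 5 tested, of which Hspb8, the partner of Bag3, rose (1.40, adjusted p = 0.00353). Hspb6 (-0.22), Hspb7 (0.73) and Cryab (0.12) did not pass.

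The CCT chaperonin, which folds actin and tubulin, had 2 of 8 subunits higher and none lower: Cct2 (0.30, adjusted p = 0.0352) and Cct3 (0.31, adjusted p = 0.0441). Cct7 (0.24) and Cct5 (0.18) did not pass. Of the ER and mitochondrial heat shock proteins 4 of 8 rose and none fell. They were Hspa5, the ER-resident HSP70 known as GRP78 (1.75, adjusted p = 4.82e-06), the mitochondrial chaperonins Hspe1 (1.12, 0.000778) and Hspd1 (0.95, 0.00582), and mitochondrial Hspa9 (0.37, 0.0161). Hspa5 and Hspe1 also passed in WT alone (adjusted p = 0.0229 and 0.0329). Among other heat shock factors and their binding proteins 5 of 6 were tested. Hspbap1, which binds HSPB1, rose (1.48, adjusted p = 0.00127), Hsf4 fell by 0.67 (adjusted p = 0.0429), and Hsf5 (0.85) and Hsf2 (-0.09) did not pass. The rise of Hspbap1 was from 0.991 to 2.12 CPM in vehicle livers to 2.24 to 7.47 CPM in APAP livers.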

How the data were processed

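Livers of 12 mice in 4 groups of 3 were profiled by stranded poly-A RNA-seq with paired reads of 100 bases. Per the submitters' processing notes, the tools included FastQC 0.11.7, Trimmomatic 0.38, HISAT2 2.1.0, Bowtie2 2.3.4.1 and StringTie 2.1.3b, with the mouse build mm10. The authors deposited 1 table with read counts, FPKM and TPM per gene and library, from which counts were tested, TPM gave levels between genes, and FPKM was not used.

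Counts were scaled by TMM, filtered by filterByExpr and tested in edgeR 4.0.16 (glmQLFit, glmQLFTest) with Benjamini-Hochberg adjustment over all genes tested (threshold 0.05). Two-group comparisons used the 6 libraries compared, and the overall comparison and the interaction used all 12. CPM values are TMM-scaled. The steps were tested on simulated data. Alternatives were DESeq2 1.42.0, its size factors, limma 3.58.1 on quantile-normalized log2(TPM + 1), no filter, a replicate block, a joint fit of 12 libraries and leaving out each library. The deposited depth of at least 49737950 counts gave every member at least 39 counts in each library. The edgeR p-values set each change against the spread between these mice.

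The genes and lists were chosen with earlier results of these data known. Every member is named, at most 4 genes per list by the smallest unadjusted p over all livers, and the 5 genes most like the sum of Hspa1a and Hspa1b by Pearson's r over 12 libraries (mean log2 CPM of at least 1). Gene positions came from RefSeq (GRCm38.p6). Transcripts (GENCODE M21) were compared by BLAST 2.17.0 at 93% identity or more over at least 200 bases. Exact permutation tests permuted treatment within genotype label. Adding counts of near-identical genes, and counting overlap in TPM and in CPM without TMM, were chosen after seeing the data.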

Additional observations from a re-analysis of the deposited data

Results flagged for a closer look

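Of 20 sets of 6 livers (10 genes, vehicle and APAP), 1 held a liver whose gap to the nearest other liver was above Dixon's 95% critical value for 6 values. It was Dnajb1 in the APAP livers, where WT APAP replicate 1 had 317 CPM and the other 5 livers 742 to 1057 CPM, a gap of 0.705 of the range on the log2 scale. Chance flags about 1 in 20 such sets. The same library held the highest erythroid and neutrophil markers, whose part in this value was not tested. Groups of 3 were not tested.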

How the results depend on the processing

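Over all 12 livers, every alternative kept 9 members called and all 170 member values on their side of the threshold. In WT, members called were 8 with DESeq2, 8 with all 12 livers in one fit and 1 with limma, and genes called went from 322 to 1413 with DESeq2 and 1523 in the joint fit. The WT change of the Hspa1a plus Hspa1b sum passed with DESeq2 (6.15, adjusted p = 0.00225) and in the joint fit (6.18). The joint fit called 2249 genes under the KO label and 0 between genotypes with either treatment. DESeq2 called 29 genes between genotypes after APAP, 137 with vehicle and 9 for the interaction. With limma, Hspa8 turned to -0.16 after APAP and Bag3 to -0.11 with vehicle. The cause was not tested.

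With the replicate number as a replicate block, 1 member and 62 genes were called in WT, 1 gene between genotypes after APAP and 0 with vehicle. Bag3 turned to -0.070 with vehicle and the Hsph1 interaction to 0.046. Correlations of the deviations of same-numbered livers ran from -0.26 to 0.05, so these livers did not deviate alike. The labels state no pairing of livers by number, and the correlations cannot show how the livers were handled.

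Leaving out 1 library gave 0 to 3 members and 41 to 442 genes called in WT (fewest without WT vehicle replicate 3), 1995 to 3368 genes under the KO label, 1 to 7 between genotypes after APAP, 0 to 16 with vehicle (with 0 to 2 members) and 0 to 2 for the interaction. After APAP, the log2 ratio of WT to KO label ran from -1.86 to 0.24 for the Hspa1a plus Hspa1b sum, -1.99 to 0.24 for Hspa1a, -1.79 to 0.23 for Hspa1b, -1.12 to 0.24 for Hsph1, -1.26 to 0.17 for Hspb1 and -0.73 to 0.12 for Hsp90aa1. With vehicle it ran from -3.50 to -0.28 for the sum, -0.98 to 0.064 for Hsph1, -0.26 to 1.17 for Hspb1, -0.71 to 0.035 for Hsp90aa1, -0.43 to 0.20 for Hsp90ab1 and -0.39 to 0.31 for Bag3. The interaction ran from -1.07 to 3.20 for the sum, -1.15 to 3.17 for Hspa1a, -1.02 to 3.21 for Hspa1b, -0.44 to 0.19 for Dnajb1, -0.91 to 0.72 for Hsph1, -0.52 to 0.45 for Hsp90aa1 and -0.76 to 0.035 for Hsp90ab1. With near-identical genes added, the exact permutation p stayed at 0.005 for Hspa8 and Hsp90aa1 and at 0.01 for Hspb1, and edgeR was not rerun. In TPM, chosen after seeing the data, 4 members in place of 6 had APAP livers above all vehicle livers. Every member had at least 39 counts in each library, and the parts of depth and of the spread between livers in the precision were not compared.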

Other observations

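The genes outside the set whose levels most resembled the sum of Hspa1a and Hspa1b over the 12 livers included copies of a member. Ranked by Pearson's r on log2(CPM + 0.5) among 11418 genes, Gm5844 (0.98) ranked 3 and Gm12346 (0.97) ranked 5, and both are pseudogenes. Gm12346 was 99.5% identical to Hsp90aa1 over 2255 bases and Gm5844 was 98.5% identical over 2202 bases, so that their reads may be those of Hsp90aa1. Gm12346 had 456 to 1132 counts in vehicle livers and 2277 to 11696 counts in APAP livers. The other 3 were Ints6, a subunit of the Integrator complex (0.97), Abtb2 (0.96) and Itgav, the integrin alpha V chain (0.96). Their change was small beside that of the HSP70 genes, as Ints6 went from 10.3 to 16.3 CPM in vehicle livers to 16.8 to 38.1 CPM in APAP livers, and Itgav from 11.3 to 14.6 CPM to 16.1 to 21.5 CPM. Treatment separates the 12 livers, so a high r over all of them is shared by many genes that moved with APAP. Of the members, Hsp90aa1 ranked 4, Hsph1 7, Hsp90ab1 9, Hspb1 18, Dnajb1 27, Bag3 50, Hspa8 119 and Hsf1 2239.

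Pseudogene rows near-identical to other members moved with APAP as well. Hsp25-ps1, 99.8% identical to Hspb1 over 441 bases, had 16 to 151 counts in vehicle livers and 137 to 1334 counts in APAP livers. Gm15459, 99.7% identical to Hspa8 over 1941 bases, had 6674 to 28350 counts in vehicle livers and 13606 to 85745 counts in APAP livers.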
